A study of Homo sapiens with 21 samples.

Results

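The 10 genes described here are the ERBB family receptors EGFR, ERBB2 and ERBB3 and the ligands AREG, EREG, HBEGF, TGFA, BTC, EPGN and NRG1. They were chosen by name as a receptor family with its ligands, with earlier results of these data known. Each symbol matched 1 of the 60668 gene identifiers in each count table, and all 10 passed the filter on low counts. RNA was sequenced in 21 libraries of HCC1806 cells, a long-established human line of triple-negative breast cancer that was kept attached in serum-containing medium, and reads were counted per gene. The libraries formed 7 groups of 3. In the first table, 3xCTL was labelled as control, 3xSR as overexpressing SRSF2, SRSF3 and SRSF7 together, and MYC-OE as overexpressing MYC; both lines were set against 3xCTL. In the second table, 1xCtrl was labelled as a single plasmid control, and SRSF2-OE, SRSF3-OE and SRSF7-OE as overexpressing each of these factors alone. All groups share the same parental line and culture. The promoter, the plasmids of the first table and the number of clones behind each line are not given in the sources used here, and nothing says that replicates were separate cultures, so p-values measure only the spread between these libraries. The SR proteins SRSF2, SRSF3 and SRSF7 bind RNA and guide its splicing; MYC is a transcription factor that drives growth genes.

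ERBB receptors are tyrosine kinases of the cell surface that pair with each other when a ligand binds, and signal through RAS-MAPK and PI3K-AKT to growth, survival and migration. EGFR binds AREG, EREG, HBEGF, TGFA, BTC and EPGN; ERBB3 binds NRG1 and has a weak kinase; ERBB2 has no known ligand and acts as the preferred partner of the others. The ligands are made as membrane-bound precursors and are released by ADAM proteases, so that a cell can stimulate itself and its neighbours, and ERK activity in turn raises transcription of several of them. Triple-negative tumours by definition lack ERBB2 amplification, and EGFR is a common feature of their basal type.

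Library totals ranged from 143269192 to 303323552 counts, so that 3 counts were worth between 0.009468 and 0.02096 CPM (the count divided by the library size in megacounts, scaled by TMM within each table). SRSF2 mRNA was not higher in the libraries labelled SRSF2-OE, at 398.5 ± 19.6 CPM (SD, n = 3) against 444.2 ± 31.5 in 1xCtrl, nor in those labelled 3xSR, at 385.6 ± 12.04 against 403.2 ± 18.3 in 3xCTL. SRSF3 and SRSF7 were higher in 3xSR (log2 fold changes of 0.31 and 0.44) and each in its own single line (0.49 and 0.26), but both were higher in SRSF2-OE as well (0.30 and 0.24). SRSF7 was at 427.8 ± 22.3 CPM in SRSF2-OE and 434.8 ± 8.65 in SRSF7-OE (SD, n = 3), and these lines did not differ in it by the test (0.02, edgeR adjusted p = 0.812). MYC was higher in MYC-OE (0.90), and also in 3xSR (0.75), SRSF3-OE (0.26) and SRSF7-OE (0.27), the last of which lost the call in 5 of 13 alternatives and SRSF3-OE in 8. SRSF2 was lower in MYC-OE (-0.48) and SRSF7-OE (-0.38). All names of lines therefore stand below for libraries that carry those labels. All 8 basal and squamous markers tested, KRT5 and TP63 among them, were at 1 CPM or more in every group, while endothelial markers summed to at most 1.28 CPM, and CD3E and PTPRC, markers of T cells and leukocytes, stayed under 0.54 CPM. CD68, a macrophage marker that other cells express too, gave nearly all of the leukocyte sum and was higher in all 5 lines than in their controls. It was at 8.51 ± 2.38 CPM in 3xCTL, 18.1 ± 2.05 in 3xSR and 34.6 ± 2.16 in MYC-OE, while 1xCtrl had 12.2 ± 3.24 CPM, SRSF2-OE had 21.5 ± 1.06, SRSF3-OE had 30.7 ± 1.59 and SRSF7-OE had 21.7 ± 2.46 (SD, n = 3). Fits of 1xCtrl with SRSF2-OE or SRSF7-OE alone ended the calls of these lines (edgeR adjusted p = 0.0585 and 0.0515). Its part in the results below was not tested. Luminal markers were detected as well, 5 or 6 of 7 at 1 CPM or more, and of the fibroblast markers only COL1A1 reached 1 CPM, with library sums of 6.399 to 16.8 CPM over the 3 genes. Libraries differed in how counts followed GC content, among the controls and between lines. The median log2 deviation of the most GC-rich decile of genes minus that of the most GC-poor decile was 0.76 in 1xCtrl replicate 2 against -0.24 and -0.52 in replicates 1 and 3, and -0.40 in 3xCTL replicate 2 against 0.31 and 0.27 in the other two. This difference was -0.44, -0.23 and -0.36 in 3xSR, -0.39, -0.23 and -0.19 in SRSF3-OE, and 0.24, 0.225 and 0.43 in MYC-OE. In SRSF2-OE and SRSF7-OE it took both signs. Transcript GC content was 47.5% to 57.5% in the receptors, 50.9% in HBEGF and 36.1% to 45.9% in the other ligands. Where leaving out replicate 2 of a control, or removing the GC trend, changed the call of a member against that control, the value is given beside it.

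EGFR had the highest level per length of the 10 genes in both control lines, at 60.6 ± 2.44 CPM per kb of exon in 3xCTL and 64.8 ± 5.06 in 1xCtrl (SD, n = 3). TGFA, which encodes transforming growth factor alpha, was the highest ligand, at 25.0 ± 1.99 and 30.5 ± 1.98 CPM per kb, and AREG (amphiregulin) followed at 18.6 ± 1.42 and 28.6 ± 2.12. ERBB2 and ERBB3 lay at 16.3 ± 2.34 and 15.8 ± 0.591 CPM per kb in 3xCTL, closer to each other than their spread. BTC (betacellulin) was lowest, at 0.0838 ± 0.0242 and 0.141 ± 0.0125 CPM per kb, which rested on 31 to 57 counts per library in 3xCTL and 67 to 89 in 1xCtrl. In 3xSR, HBEGF reached 37.5 ± 1.01 CPM per kb, above TGFA and AREG by less than 2 CPM per kb. All 3 stayed below EGFR in those libraries, at 59.8 ± 1.86 CPM per kb.

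**Figure D1:**
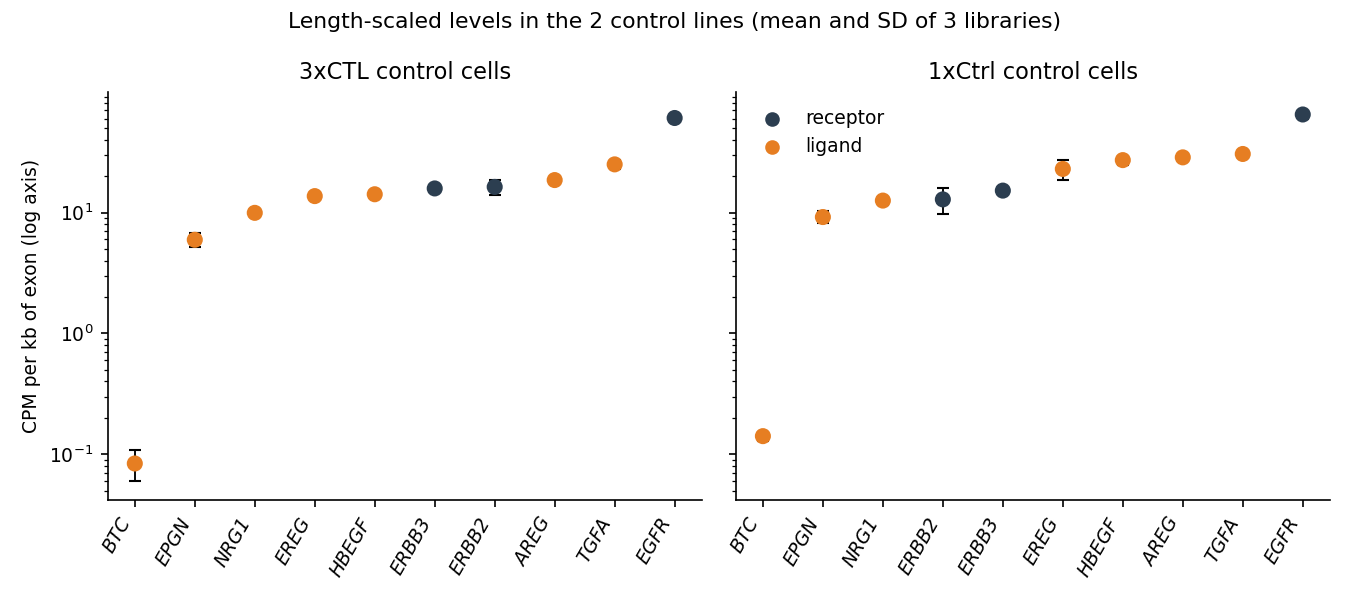
Level of each receptor (dark points) and ligand (orange points) in the 2 control lines, as CPM per kb of exon on a log axis, with mean and SD of 3 libraries. EGFR stands highest and BTC lowest in both control lines.

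At least 3 of the 7 ligands rose in 4 of the 5 lines, and each receptor that passed the test against its control had fallen. In 3xSR, 7 of 7 ligands rose and 1 of 3 receptors fell (edgeR adjusted p under 0.05), where 15.3% of all genes tested were called higher and 13.7% lower, 29.0% in either direction. In MYC-OE, 5 ligands rose, and EREG and ERBB3 fell, against 18.0% of all genes called higher and 17.3% lower (35.3% in all). In SRSF2-OE, AREG, HBEGF and TGFA rose and all 3 receptors fell, against 11.6% higher and 11.9% lower (23.5%). In SRSF3-OE, 6 of 7 ligands rose and ERBB2 and ERBB3 fell, against 15.0% higher and 14.1% lower (29.2%). In SRSF7-OE no member rose by edgeR, and EGFR, ERBB3, EREG and EPGN fell, against 9.03% higher and 8.26% lower (17.3%). At an unadjusted p under 0.05 edgeR also had TGFA and BTC higher there, and NRG1 and AREG lower. With DESeq2 no member rose in that line. The median log2 fold change of the 7 ligands was 0.95 for 3xSR, 0.41 for MYC-OE, -0.08 for SRSF2-OE, 0.70 for SRSF3-OE and -0.15 for SRSF7-OE, while that of all genes stayed between -0.03 and 0.00. In bulk RNA, fewer expressing cells and less RNA per cell cannot be told apart. Leaving out 1xCtrl replicate 2 changed these counts to 3 higher and 4 lower in SRSF2-OE, 6 higher and 1 lower in SRSF3-OE, and 1 higher and 6 lower in SRSF7-OE. Leaving out 3xCTL replicate 2 left the counts of 3xSR at 7 higher and 1 lower, and made those of MYC-OE 5 higher and 3 lower. The shares of all genes given above belong to the fits with all libraries. Without 1xCtrl replicate 2 more of all genes were called in SRSF7-OE too, as given at the end. Scaling by total counts alone shifted the median of all genes by -0.11 in SRSF3-OE and moved the share of calls that were higher from 51.6% to 32.1%, and in SRSF2-OE from 49.2% to 36.7%.

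**Figure D2:**
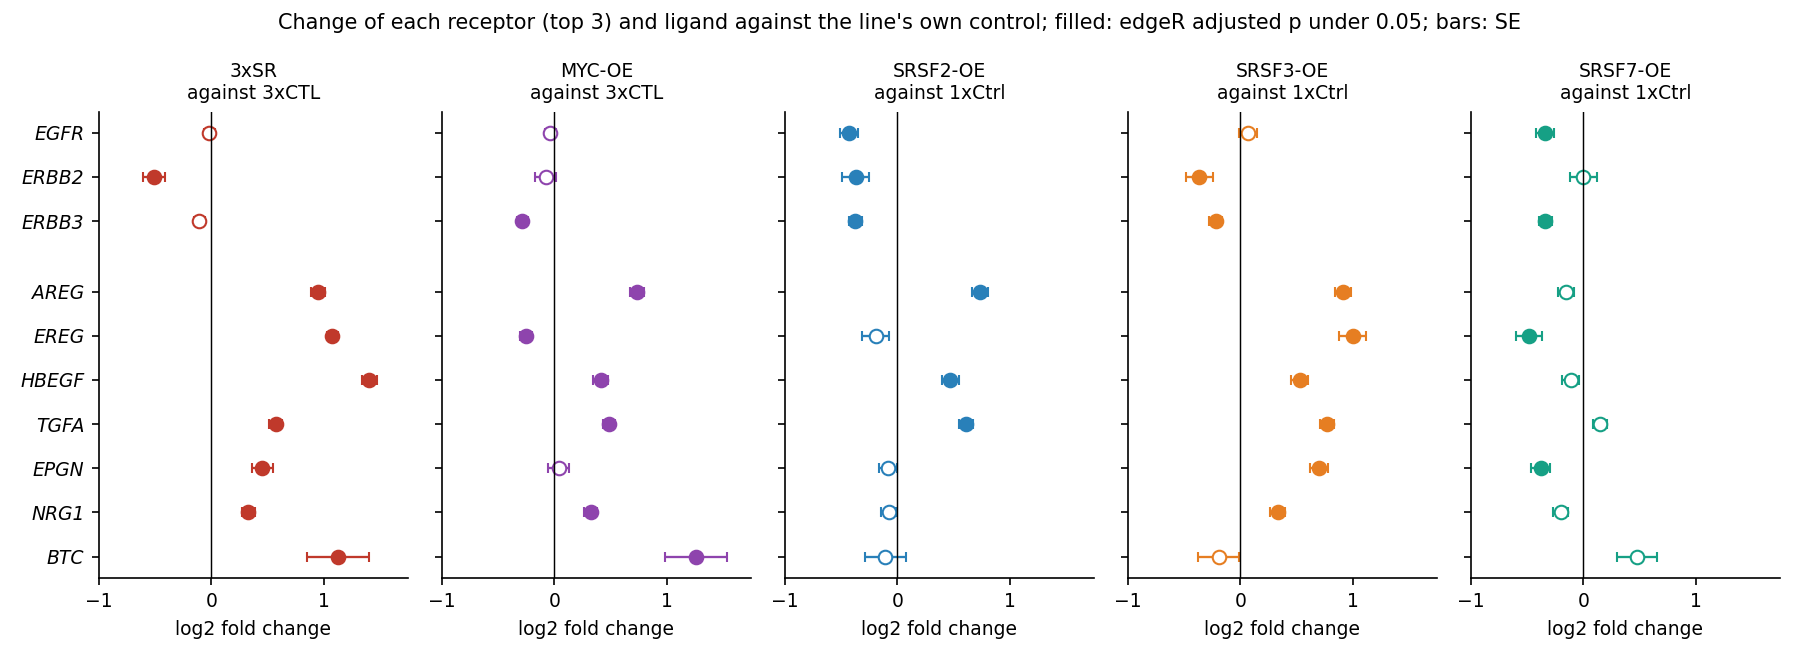
Log2 fold change of each receptor (top 3 rows) and ligand against the control of its own table, 1 panel per line; bars are standard errors and filled points have an edgeR adjusted p under 0.05. The ligand points lie right of 0 in 3xSR, and AREG, HBEGF and TGFA do so in every panel but that of SRSF7-OE, where AREG and HBEGF lie left of it and no ligand is called higher.

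EGFR, the receptor of most of these ligands, lies on chromosome 7 (GRCh38, 55019021 to 55211628, plus strand; ENSG00000146648.18). Its level in the first table was 727, 763 and 787 CPM in the 3 libraries of 3xCTL, 776, 735 and 736 in 3xSR, and 743, 747 and 732 in MYC-OE. These 3 groups overlapped, and neither line passed the test (log2 fold changes of -0.02 and -0.03, SE 0.05 each; edgeR adjusted p = 0.82 and 0.62). Its levels in the second table were 859, 739 and 835 CPM in 1xCtrl, 583, 605 and 621 in SRSF2-OE, 928, 803 and 819 in SRSF3-OE, and 678, 664 and 580 in SRSF7-OE. Every library of SRSF2-OE and SRSF7-OE lay below every control library, and on the log2 scale EGFR fell by 0.43 in SRSF2-OE (SE 0.0815, edgeR adjusted p = 0.00215) and by 0.34 in SRSF7-OE (SE 0.0814, adjusted p = 0.0122). SRSF3-OE overlapped its control (0.07, SE 0.0813, adjusted p = 0.599), and its sign turned with scaling by total counts and without 1xCtrl replicate 2 (-0.0079). EGFR shares 186 of its 12521 exon bases with the antisense gene EGFR-AS1, which had 0 CPM in 20 of the 21 libraries and 0.0308 in the other.

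ERBB2, the partner receptor also called HER2, lies on chromosome 17 (39687914 to 39730426, plus strand; ENSG00000141736.13). It had 181, 140 and 184 CPM in 3xCTL, 109, 129 and 116 in 3xSR, and 155, 161 and 162 in MYC-OE. The 3xSR libraries lay below all others of the table, and ERBB2 fell by 0.51 in 3xSR (log2 scale; SE 0.0972, edgeR adjusted p = 0.00259), while the MYC-OE value of -0.08 did not pass (adjusted p = 0.58; without 3xCTL replicate 2, -0.19 and 0.0239). In the other table it had 122, 168 and 108 CPM in 1xCtrl, 102, 102 and 103 in SRSF2-OE, 101, 99.6 and 108 in SRSF3-OE, and 137, 129 and 132 in SRSF7-OE. The control libraries spread more widely than any line, with replicate 2 highest. The calls of SRSF2-OE (-0.37, SE 0.123, edgeR adjusted p = 0.0469) and SRSF3-OE (-0.36, SE 0.123, adjusted p = 0.0418) were lost in 9 of 13 alternatives each, among them the omission of any library of the compared groups but 1xCtrl replicate 3. Without 1xCtrl replicate 2 they were -0.17 (adjusted p = 0.054) and -0.17 (adjusted p = 0.05016), and SRSF7-OE, at 0.00 with all libraries, rose by 0.22 (adjusted p = 0.0155). ERBB2 has the highest transcript GC content of the 10 genes, 57.5%, and its high and low control libraries were those with high and low GC trends. With the GC trend of each library removed, ERBB2 was lower in 3xSR by -0.35 (edgeR adjusted p = 7.46e-05), in SRSF2-OE by -0.35 (adjusted p = 0.000317) and in SRSF3-OE by -0.24 (adjusted p = 0.00358). Its exons overlap those of PGAP3 and MIEN1 on the opposite strand by 194 and 571 of 10321 bases. The strand setting of the counting is not given in the sources used here, so reads there cannot be assigned with certainty.

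ERBB3, the receptor of neuregulins, lies on chromosome 12 (56076799 to 56103505, plus strand; ENSG00000065361.15) and was below its control in every line. It had 137, 146 and 147 CPM in 3xCTL, 128, 135 and 135 in 3xSR, and 116, 115 and 121 in MYC-OE. The 3 groups did not overlap, with 3xSR in between, and ERBB3 fell in MYC-OE by 0.28 (SE 0.0495, edgeR adjusted p = 0.000832) but the 3xSR value of -0.11 did not pass (adjusted p = 0.134). The single lines and their control gave 140, 135 and 137 CPM in 1xCtrl, 105, 108 and 105 in SRSF2-OE, 122, 116 and 117 in SRSF3-OE, and 113, 113 and 101 in SRSF7-OE. All 9 libraries of the single lines lay below all 3 control libraries. ERBB3 fell by 0.37 in SRSF2-OE (SE 0.0567, edgeR adjusted p = 0.000462), by 0.22 in SRSF3-OE (SE 0.0566, adjusted p = 0.0107) and by 0.34 in SRSF7-OE (SE 0.0566, adjusted p = 0.00183). The SRSF3-OE value was -0.33 when libraries were scaled by total counts alone. ERBB3 was the member called lower most often, in 4 of the 5 lines.

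**Figure D3:**
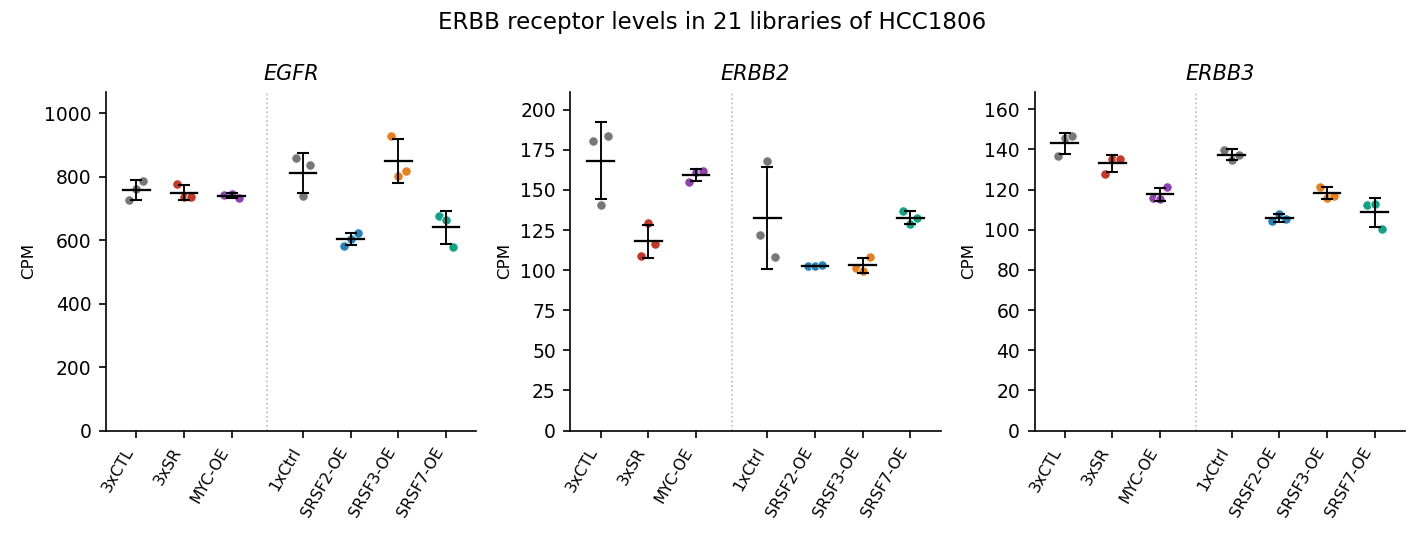
CPM of EGFR, ERBB2 and ERBB3 in each of 21 libraries (points), with the mean (line) and SD (bar) of each group of 3; the dotted line separates the 2 count tables. EGFR is low in SRSF2-OE and SRSF7-OE, ERBB2 is low in 3xSR and widely spread in 1xCtrl, and ERBB3 lies below its control in every line.

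AREG, EREG, EPGN and BTC lie in a cluster on chromosome 4. EPGN (74308473 to 74315307, plus strand; ENSG00000182585.10), EREG (74365143 to 74388751, plus; ENSG00000124882.4) and AREG (74445134 to 74455009, plus; ENSG00000109321.11) follow each other with gaps of 49.8 and 56.4 kb, and BTC (74744759 to 74794686, minus; ENSG00000174808.12) lies 289.7 kb beyond AREG. The stretches just before the starts of AREG, EREG and EPGN are shown because these neighbours were changed to different extents in the same lines, and that of EGFR because its level stayed near the control in 3xSR and MYC-OE. They are from RefSeq (GRCh38.p14, plus strand, 5′ to 3′) and cover chr4:74444886-74445133, chr4:74364895-74365142, chr4:74308220-74308469 and chr7:55018767-55019016. Capitals mark matches to TATAAA or, in AREG, to TGACGTCA as well.
AREG: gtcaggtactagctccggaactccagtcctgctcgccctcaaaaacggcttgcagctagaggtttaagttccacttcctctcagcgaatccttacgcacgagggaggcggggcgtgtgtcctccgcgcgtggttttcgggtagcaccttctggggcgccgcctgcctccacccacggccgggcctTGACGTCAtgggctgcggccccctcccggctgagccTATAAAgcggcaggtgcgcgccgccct
EREG: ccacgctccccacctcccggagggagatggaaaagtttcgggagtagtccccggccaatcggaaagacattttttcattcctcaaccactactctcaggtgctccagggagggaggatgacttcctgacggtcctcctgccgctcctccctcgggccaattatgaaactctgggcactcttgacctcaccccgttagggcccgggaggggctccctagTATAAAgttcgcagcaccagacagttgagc
EPGN: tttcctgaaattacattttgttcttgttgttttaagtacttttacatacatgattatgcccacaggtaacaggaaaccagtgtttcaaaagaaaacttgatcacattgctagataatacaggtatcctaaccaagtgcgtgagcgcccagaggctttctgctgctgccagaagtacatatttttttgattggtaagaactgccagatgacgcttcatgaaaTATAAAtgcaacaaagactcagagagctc
EGFR: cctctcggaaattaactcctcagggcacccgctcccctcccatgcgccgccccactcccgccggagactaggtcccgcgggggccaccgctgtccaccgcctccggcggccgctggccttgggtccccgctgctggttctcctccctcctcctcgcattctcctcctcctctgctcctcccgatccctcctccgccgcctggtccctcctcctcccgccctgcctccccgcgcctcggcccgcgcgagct
AREG holds the cyclic AMP response element TGACGTCA 65 bases before its RefSeq start. This motif was found in 1.65% of 35116 RefSeq promoters of 250 bases searched on both strands. AREG, EREG and EPGN each hold the TATA box letters TATAAA, at 29, 32 and 29 bases before the RefSeq start, against 10.7% of all promoters. The printed AREG and EREG stretches hold 248 bases and stop short of that start, since they end before the gene starts given above. The EGFR window holds neither of these, nor the AP-1 motif TGANTCA (6.57% of promoters) or the E-box CACGTG bound by MYC (6.34%). Of the 10 genes 8 had at least 1 promoter entry, 10 entries in all, and CACGTG was in none of them. TGANTCA was in the ERBB2 entry and in a second EGFR entry. That second EGFR entry also held TATAAA, at 146 and 36 bases before its start. A match is a description of these letters, and no binding was measured.

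AREG is a low-affinity EGFR ligand that epithelial cells make in growth and repair. It had 29.1, 33.3 and 29.4 CPM in 3xCTL, 60.3, 58.1 and 58.5 in 3xSR, and 53.0, 48.1 and 51.9 in MYC-OE. The 3 groups did not overlap: AREG rose in 3xSR by 0.95 on the log2 scale, or 1.93-fold (SE 0.0626, edgeR adjusted p = 6.12e-07), and in MYC-OE by 0.74, or 1.67-fold (SE 0.0624, adjusted p = 2.88e-06). Levels in the second table were 47.5, 43.5 and 50.5 CPM in 1xCtrl, 71.4, 80.3 and 84.2 in SRSF2-OE, 91.4, 86.1 and 88.8 in SRSF3-OE, and 42.8, 42.0 and 42.4 in SRSF7-OE. SRSF2-OE and SRSF3-OE lay above every control library and SRSF7-OE just below the lowest of them. AREG rose by 0.74 in SRSF2-OE (SE 0.0705, edgeR adjusted p = 1.54e-05) and by 0.91 in SRSF3-OE (SE 0.0707, adjusted p = 1.48e-06), and the SRSF7-OE value of -0.15 did not pass (adjusted p = 0.158; without 1xCtrl replicate 2, -0.20 and 0.0338).

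EREG encodes epiregulin, a broad ligand of the family. It had 79.9, 78.6 and 76.1 CPM in 3xCTL, 171, 158 and 167 in 3xSR, and 68.5, 66.0 and 62.5 in MYC-OE. Epiregulin mRNA thus moved in opposite directions in these lines: it rose in 3xSR by 1.08, or 2.11-fold (SE 0.0527, edgeR adjusted p = 5.26e-08), and fell in MYC-OE by 0.25 (SE 0.0522, adjusted p = 0.00257; -0.16 and 0.0117 with the GC trend removed). The corresponding levels in the second table were 149, 103 and 141 CPM in 1xCtrl, 112, 108 and 124 in SRSF2-OE, 286, 245 and 257 in SRSF3-OE, and 88.7, 98.1 and 94.2 in SRSF7-OE. The SRSF3-OE libraries were the highest of the table, the SRSF7-OE libraries lay below all 3 controls, and SRSF2-OE overlapped the control. In SRSF3-OE it rose by 1.00, or 2.00-fold (SE 0.117, edgeR adjusted p = 5.57e-05), and it fell by 0.49 in SRSF7-OE (SE 0.116, adjusted p = 0.0134). The fall in SRSF7-OE missed the threshold when only those 6 libraries were fitted (adjusted p = 0.06). The SRSF2-OE value of -0.19 did not pass (adjusted p = 0.269), but without 1xCtrl replicate 2 it was -0.35 (adjusted p = 0.00283). EREG has the lowest transcript GC content of the 10 genes, 36.1%, and its lowest control library was replicate 2. With the GC trend removed the values were 0.92 in 3xSR, 0.92 in SRSF3-OE and -0.44 in SRSF7-OE.

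EPGN encodes epigen, another EGFR ligand. It was at 9.44, 12.3 and 10.7 CPM in 3xCTL, 15.3, 14.4 and 14.7 in 3xSR, and 10.7, 11.6 and 10.97 in MYC-OE, and it rose in 3xSR by 0.46 (SE 0.0915, edgeR adjusted p = 0.00279) but not in MYC-OE by this test (0.04, adjusted p = 0.785). EPGN was at 17.7, 14.4 and 17.9 CPM in 1xCtrl, 15.3, 15.9 and 15.95 in SRSF2-OE, 26.8, 27.8 and 26.4 in SRSF3-OE, and 12.8, 13.5 and 12.1 in SRSF7-OE. The order of the groups was that of EREG in both tables apart from 3xCTL and MYC-OE, which overlapped. EPGN rose in SRSF3-OE by 0.70, or 1.62-fold (SE 0.0822, edgeR adjusted p = 4.3e-05), and fell in SRSF7-OE by 0.38 (SE 0.0821, adjusted p = 0.00728; 0.0544 when only those 6 libraries were fitted). The SRSF2-OE value of -0.08 did not pass, but without 1xCtrl replicate 2 it was -0.18 (adjusted p = 0.0271). BTC, a ligand of EGFR and ERBB4, was scarce, at 0.228, 0.308 and 0.172 CPM in 3xCTL, 0.653, 0.507 and 0.384 in 3xSR, and 0.479, 0.641 and 0.585 in MYC-OE. Both lines lay above the control, and BTC rose by 1.13 (SE 0.276, edgeR adjusted p = 0.0093) and 1.27 (SE 0.275, adjusted p = 0.0035) on the log2 scale. Among the single lines and 1xCtrl, BTC was between 0.320 and 0.577 CPM, with SRSF7-OE highest (0.554 ± 0.0296, SD, n = 3, against 0.397 ± 0.0352 in 1xCtrl), and no line passed the test, although with the GC trend removed SRSF7-OE did (0.51, adjusted p = 0.0498).

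HBEGF encodes the heparin-binding EGF-like growth factor, a ligand of EGFR and ERBB4, and lies on chromosome 5 (140332843 to 140346631, minus strand; ENSG00000113070.8). Its levels were 40.4, 43.5 and 44.4 CPM in 3xCTL, 110, 114 and 116 in 3xSR, and 54.3, 53.7 and 62.8 in MYC-OE. All 3 groups were apart, and HBEGF rose in 3xSR by 1.41, or 2.65-fold (SE 0.067, edgeR adjusted p = 4.3e-08), the largest change of the 10 genes against a control, and in MYC-OE by 0.41, or 1.33-fold (SE 0.066, adjusted p = 0.000435). For the second table the levels were 81.9, 75.3 and 88.8 CPM in 1xCtrl, 105, 125 and 112 in SRSF2-OE, 116, 121 and 117 in SRSF3-OE, and 80.7, 74.4 and 72.5 in SRSF7-OE. SRSF2-OE and SRSF3-OE overlapped each other and lay above every control library. HBEGF rose in SRSF2-OE by 0.47 (SE 0.0771, edgeR adjusted p = 0.000767) and in SRSF3-OE by 0.53 (SE 0.0771, adjusted p = 0.000217), and SRSF7-OE overlapped the control (-0.11, adjusted p = 0.362).

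TGFA lies on chromosome 2 (70447280 to 70554193, minus strand; ENSG00000163235.16) and encodes a high-affinity EGFR ligand. It had 116, 135 and 122 CPM in 3xCTL, 184, 184 and 188 in 3xSR, and 176, 170 and 176 in MYC-OE. Both lines lay above every control library, and TGFA rose by 0.58, or 1.49-fold, in 3xSR (SE 0.0571, edgeR adjusted p = 1.64e-05) and by 0.49, or 1.40-fold, in MYC-OE (SE 0.057, adjusted p = 4.23e-05). TGFA had 160, 141 and 154 CPM in 1xCtrl, 222, 237 and 235 in SRSF2-OE, 259, 248 and 268 in SRSF3-OE, and 165, 175 and 164 in SRSF7-OE. The order was the same as for AREG except that SRSF7-OE lay above its control. TGFA rose in SRSF2-OE by 0.61 (SE 0.0613, edgeR adjusted p = 2.17e-05) and in SRSF3-OE by 0.77, or 1.71-fold (SE 0.0614, adjusted p = 1.77e-06), and SRSF7-OE, at 0.15, did not pass (adjusted p = 0.12; 0.0166 with the GC trend removed).

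NRG1, the neuregulin that binds ERBB3 and ERBB4, lies on chromosome 8 (31639386 to 32767959, plus strand; ENSG00000157168.20). It had 106, 123 and 109 CPM in 3xCTL, 138, 143 and 143 in 3xSR, and 140, 140 and 142 in MYC-OE. The control libraries were lowest, the lines overlapped each other, and NRG1 rose by 0.33 in 3xSR (SE 0.0576, edgeR adjusted p = 0.00114) and by 0.32 in MYC-OE (SE 0.0576, adjusted p = 0.000939). NRG1 had 145, 130 and 151 CPM in 1xCtrl, 130, 135 and 140 in SRSF2-OE, 182, 176 and 180 in SRSF3-OE, and 127, 130 and 114 in SRSF7-OE. NRG1 rose in SRSF3-OE by 0.33 (SE 0.0682, edgeR adjusted p = 0.00241). Neither SRSF2-OE (-0.08, adjusted p = 0.474) nor SRSF7-OE (-0.20, adjusted p = 0.061) passed. The SRSF7-OE value passed the threshold in 9 of 13 alternatives, among them RLE scaling (adjusted p = 0.0481), removal of the GC trend (-0.19, adjusted p = 0.00496), DESeq2 (adjusted p = 0.0456) and leaving out 1xCtrl replicate 2 (-0.25, adjusted p = 0.00461).

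**Figure D4:**
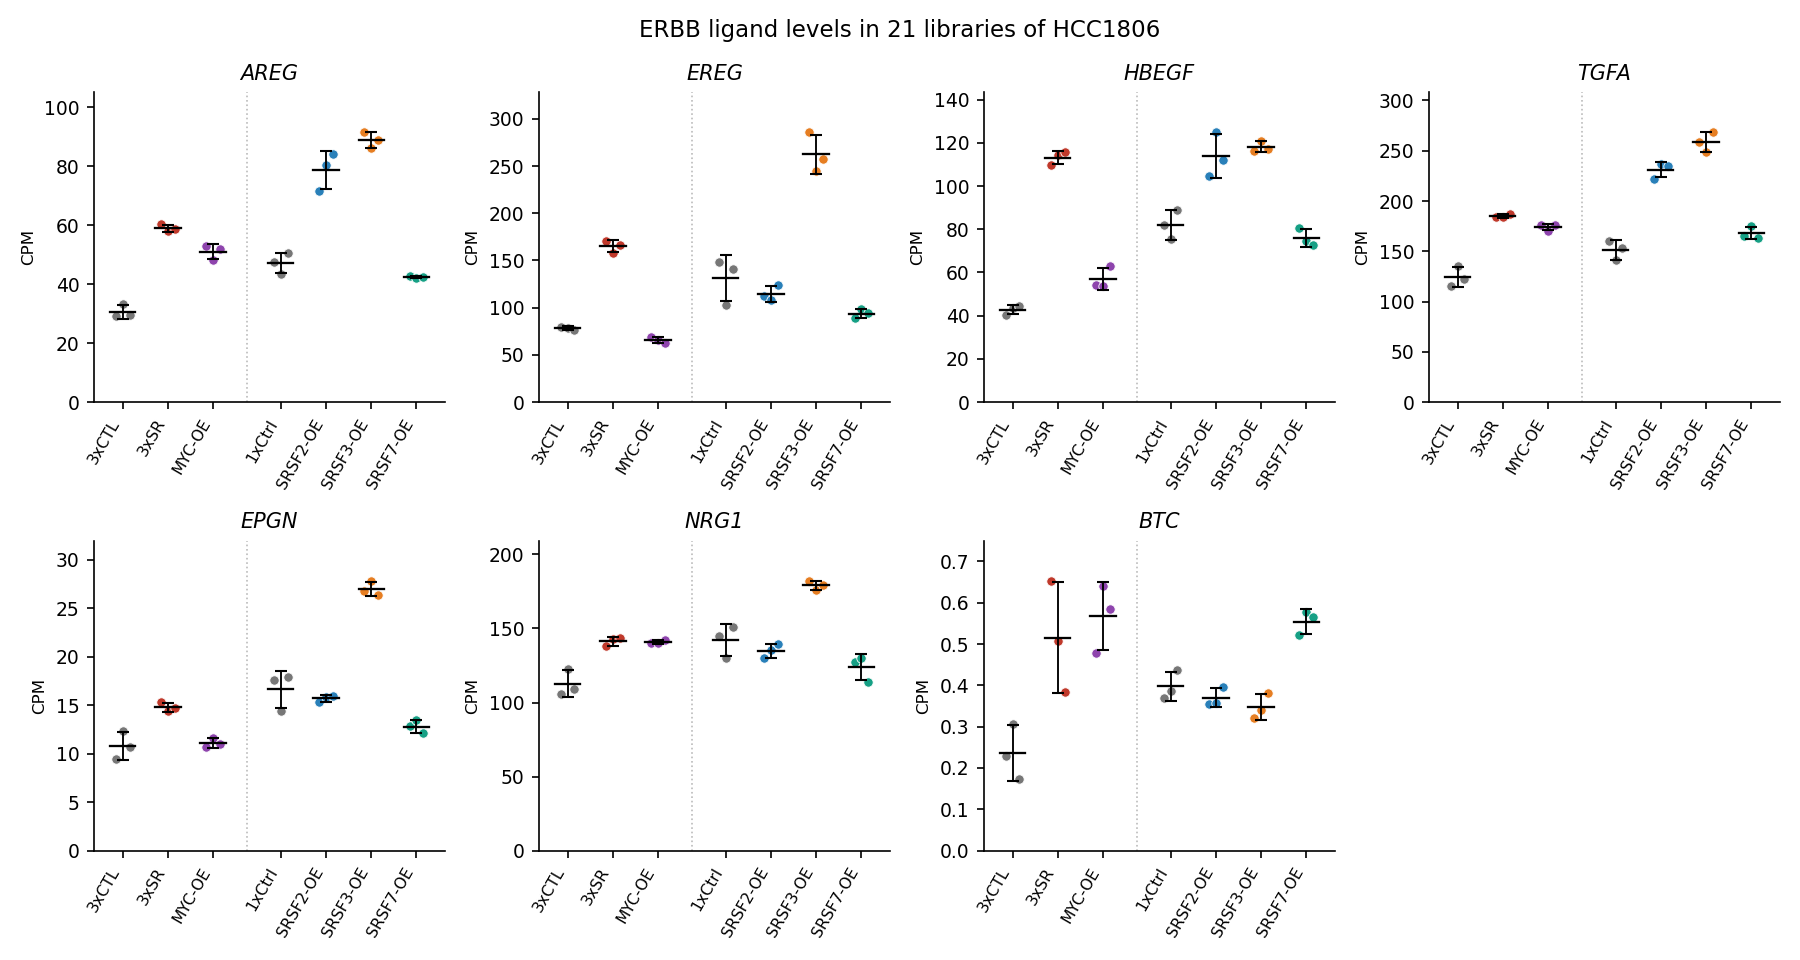
CPM of the 7 ligands in each of 21 libraries (points), with the mean (line) and SD (bar) of each group of 3; the dotted line separates the 2 count tables, and each panel has its own axis from 0. All 7 ligands are higher in 3xSR than in 3xCTL, and the 2 control lines start from different levels. In the second table the mean of every ligand but BTC is highest in SRSF3-OE.

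The control lines themselves differed in ligand level. Means in 3xCTL and 1xCtrl were 42.8 and 82.0 CPM for HBEGF, 30.6 and 47.2 for AREG, and 78.2 and 131 for EREG. These values were scaled within separate tables, which may differ in the handling of the cells and libraries, and the difference was not tested. An effect in 3xSR is therefore given against 3xCTL only.

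Tests of the lines against each other placed MYC-OE below 3xSR for EREG (-1.33, SE 0.053, edgeR adjusted p = 4.5e-08), HBEGF (-0.99, SE 0.0663, adjusted p = 1.4e-06), EPGN (-0.42, adjusted p = 0.00406; -0.25 with the GC trend removed) and AREG (-0.21, adjusted p = 0.0208), and above it for ERBB2 (0.43, adjusted p = 0.00569; 0.27 with the GC trend removed). ERBB3 was lower in MYC-OE too (-0.18, adjusted p = 0.0156), and 6 of the 10 members were called in all against 34.9% of all genes. The AREG difference missed the threshold without 3xSR replicate 1 or 3 or MYC-OE replicate 2 (adjusted p from 0.0584 to 0.1), and that of ERBB3 without 3xSR replicate 2 or 3 or MYC-OE replicate 1 or 2 (0.0639 to 0.0709). TGFA (-0.09), NRG1 (-0.01) and EGFR (-0.02) showed no difference that passed. SRSF3-OE and SRSF7-OE stood furthest apart, with 9 of 10 members called against 35.2% of all genes. EREG was lowest against SRSF3-OE, by -1.49 (SE 0.118, edgeR adjusted p = 1.645e-06), EPGN by -1.08 and AREG by -1.07, and HBEGF, TGFA and NRG1 by -0.64, -0.62 and -0.53. EGFR was lower there by -0.41, while BTC and ERBB2 were higher by 0.67 and 0.37 (ERBB2 by 0.24 with the GC trend removed). Between SRSF3-OE and SRSF2-OE, 4 members were called, all higher, against 14.1% of all genes called higher and 26.8% in either direction: EREG (1.20), EPGN (0.78), EGFR (0.50) and NRG1 (0.41) were higher in SRSF3-OE. AREG (0.18, edgeR adjusted p = 0.0826), TGFA (0.16, adjusted p = 0.0702) and HBEGF (0.05, adjusted p = 0.669) did not pass. SRSF7-OE against SRSF2-OE gave 6 calls against 24.2%, with AREG (-0.89), HBEGF (-0.59), TGFA (-0.46) and EPGN (-0.29) lower and ERBB2 (0.37) and BTC (0.59) higher. Both ERBB2 differences missed the threshold without any 1 library of the lines compared (adjusted p from 0.101 to 0.199). They also did so with the replicate number as a block (0.0658 against SRSF2-OE and 0.0516 against SRSF3-OE), under RLE scaling (0.0622 and 0.0508) and with no filter (0.139 and 0.105). The BTC call was lost without SRSF2-OE replicate 1 or 2 or SRSF7-OE replicate 2 or 3 (adjusted p from 0.05046 to 0.0652).

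The step from control to 3xSR was compared with that of each single line in 1 joint fit over the 21 libraries. It exceeded the SRSF2-OE step for 7 members, where 13.3% of all genes did so and 21.9% differed, exceeded the SRSF3-OE step for 2 members (10.8% and 17.8%), and differed from the SRSF7-OE step for 9 members (24.6%). HBEGF was the member whose 3xSR step exceeded that of all 3 single lines, by 0.94 over SRSF2-OE (SE 0.101, edgeR adjusted p = 1.41e-06), 0.89 over SRSF3-OE (SE 0.101, adjusted p = 4.64e-06) and 1.52 over SRSF7-OE (SE 0.101, adjusted p = 2.43e-09). The HBEGF levels reached were nonetheless alike in 3 of these lines, each scaled within its own table. They were 113.2 ± 3.04 CPM in 3xSR, 113.8 ± 10.2 in SRSF2-OE and 118.2 ± 2.54 in SRSF3-OE (SD, n = 3). The controls stood at 42.8 CPM in 3xCTL and 82.0 in 1xCtrl, so the larger step of 3xSR began from a lower control. BTC exceeded the SRSF2-OE and SRSF3-OE steps by 1.24 and 1.33 but rested on few counts. EREG differed from SRSF2-OE by 1.28 and from SRSF7-OE by 1.57 but from SRSF3-OE by only 0.09 (SE 0.133, adjusted p = 0.731), and AREG differed from SRSF3-OE by 0.05 (SE 0.0918, adjusted p = 0.803). TGFA did not differ by this test from SRSF2-OE (-0.03, SE 0.0793, adjusted p = 0.872). Each step is relative to its own control, and the controls differed in level as given above.

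Of the other family members, the founding ligand EGF was lower in all but 3xSR: it fell in MYC-OE (-0.45), SRSF2-OE (-0.86), SRSF3-OE (-0.68) and SRSF7-OE (-0.45), from 39.6 ± 4.09 CPM in 1xCtrl to 21.8 ± 0.346 in SRSF2-OE (SD, n = 3). In 3xSR it was at 29.7 ± 0.902 CPM against 30.3 ± 1.35 in 3xCTL and did not pass (-0.03, edgeR adjusted p = 0.75). EGF was thus lower in SRSF2-OE and SRSF3-OE, in which AREG, HBEGF and TGFA were higher. ERBB4, the remaining receptor, was scarce, between 0.103 and 0.256 CPM as a group mean, and was called higher in SRSF3-OE (1.31) and SRSF7-OE (1.29). Each of these calls was lost in 4 of 13 alternatives: in a fit of the line and its control alone, and without 1xCtrl replicate 3 or replicate 2 or 3 of the line (edgeR adjusted p from 0.0553 to 0.0899). Of the other neuregulins, NRG2 rose from 0.234 ± 0.0753 CPM in 3xCTL to 0.757 ± 0.119 in 3xSR (SD, n = 3; 1.68, edgeR adjusted p = 0.000382) and to 0.606 ± 0.0346 in MYC-OE (1.36, adjusted p = 0.00117). NRG4 fell in 3xSR (-0.40), MYC-OE (-0.33) and SRSF3-OE (-0.56), and NRG3 had at most 1 count in any library. Of the 4 tested genes of this list, 1 rose and 1 fell in 3xSR and in SRSF7-OE. In MYC-OE and in SRSF3-OE 1 rose and 2 fell, and in SRSF2-OE 1 fell. Of all genes tested, 29.0% were called in 3xSR, 17.3% in SRSF7-OE, 35.3% in MYC-OE, 29.2% in SRSF3-OE and 23.5% in SRSF2-OE. ERBB4, NRG2 and NRG3 lie outside the rule for naming genes and are named after their values were seen.

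Lists of genes that release the ligands or carry the signal onwards each had calls in both directions in 3xSR, where 29.0% of all genes were called. Of 9 genes of shedding and trafficking, 1 rose and 1 fell in 3xSR (22.2%; 4 were called by DESeq2, 5 with the GC trend removed and 6 without 3xCTL replicate 2): TIMP3, an inhibitor of metalloproteases, was higher (0.59) and ADAM10, a sheddase, lower (-0.24). In SRSF2-OE 1 rose and 5 fell, 66.7% of the list against 23.5% of all genes, with ADAM9 lowest at -0.47. Of 16 genes of the RAS-MAPK core, 5 rose and 4 fell in 3xSR (56.25%), with HRAS lowest. HRAS was at 14.4 ± 1.12 CPM in 3xSR against 19.9 ± 3.70 in 3xCTL (SD, n = 3; -0.46, edgeR adjusted p = 0.0122), where replicate 2, at 15.6, overlapped the line; the value was -0.61 without that library and -0.17 with the GC trend removed. The call was lost without replicate 1 or 3 of either group (adjusted p from 0.0528 to 0.0551), and so were most of the list's: 2 or 3 of its genes were called without any 1 of these libraries, and 5 with the GC trend removed. In SRSF3-OE 4 rose and 1 fell (31.25%, against 29.2% of all genes), with the adaptor GRB2 highest (0.43). There 3 were called without 1xCtrl replicate 1 or SRSF3-OE replicate 1 or 3, and 10 with the GC trend removed. Of 10 genes of PI3K-AKT, 3 rose and 2 fell in 3xSR (5 of 10, or 8 with the GC trend removed), and 4 rose and 4 fell in MYC-OE (8 of 10, against 35.3% of all genes). PIK3R1, a regulatory subunit of PI3K, was the lowest in 3xSR (-0.69) and MYC-OE (-0.84). Of 12 genes that inhibit or degrade the receptors, 4 rose and 2 fell in 3xSR (6 of 12; 10 were called without 3xCTL replicate 2), and 2 rose and 6 fell in MYC-OE (66.7%). LRIG1, a membrane protein that promotes receptor degradation, was the highest in 3xSR (0.55) and SRSF3-OE (0.75), and ERRFI1, a feedback inhibitor of EGFR, the lowest in MYC-OE (-0.59).

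Genes that ERK activity induces, among them its own inhibitors, form the longest of the 6 lists. All 6 lists were chosen with earlier results of these data known, so their shares of calls are a description. Of 18 such genes, 12 rose and 2 fell in 3xSR, 9 rose and 5 fell in MYC-OE, 10 rose and 2 fell in SRSF2-OE, 8 rose in SRSF3-OE, and 4 rose and 2 fell in SRSF7-OE. The share called was 77.8% in both 3xSR and MYC-OE, against 29.0% and 35.3% of all genes tested, 66.7% in SRSF2-OE against 23.5%, 44.4% in SRSF3-OE against 29.2%, and 33.3% in SRSF7-OE against 17.3%. The number called fell to 8 in MYC-OE without MYC-OE replicate 3, and to 5 in SRSF3-OE without 1xCtrl replicate 1 or SRSF3-OE replicate 1 or 3. In SRSF2-OE it fell to 9, of which 7 rose, without 1xCtrl replicate 1 or 3 or any SRSF2-OE replicate. The same 9 calls, 7 of them higher, were left there with total counts alone, no filter or only the 2 groups compared. In SRSF7-OE the number fell to 3 without 1xCtrl replicate 1 or SRSF7-OE replicate 3, and to 2 with only the 2 groups compared. The median log2 fold change was 0.60 over the 18 genes in 3xSR and at most 0.26 in the other lines. SPRY4, an inhibitor of RAS-MAPK signalling, rose in 3xSR from 8.94 ± 0.535 to 23.9 ± 1.31 CPM (SD, n = 3; the log2 fold change was 1.42 with SE 0.1003 and edgeR adjusted p = 1.07e-06) and fell in MYC-OE (-0.59, adjusted p = 0.000643) and SRSF7-OE (-0.57, adjusted p = 0.00153). The phosphatase gene DUSP6, named after its values were seen, rose by 1.32 in 3xSR and by 0.43 in SRSF2-OE, and stood at 0.02, 0.04 and 0.05 in MYC-OE, SRSF3-OE and SRSF7-OE. FOSL1, a component of AP-1, was the highest call in MYC-OE (0.96), SRSF2-OE (1.31) and SRSF3-OE (1.05). EGR1, an immediate early gene, was the lowest in 3xSR (-0.30; the call was lost without 3xCTL replicate 3 or 3xSR replicate 1 or 3, edgeR adjusted p from 0.0616 to 0.0699) and MYC-OE (-0.95). Phosphorylation and protein levels were not measured.

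**Figure D5:**
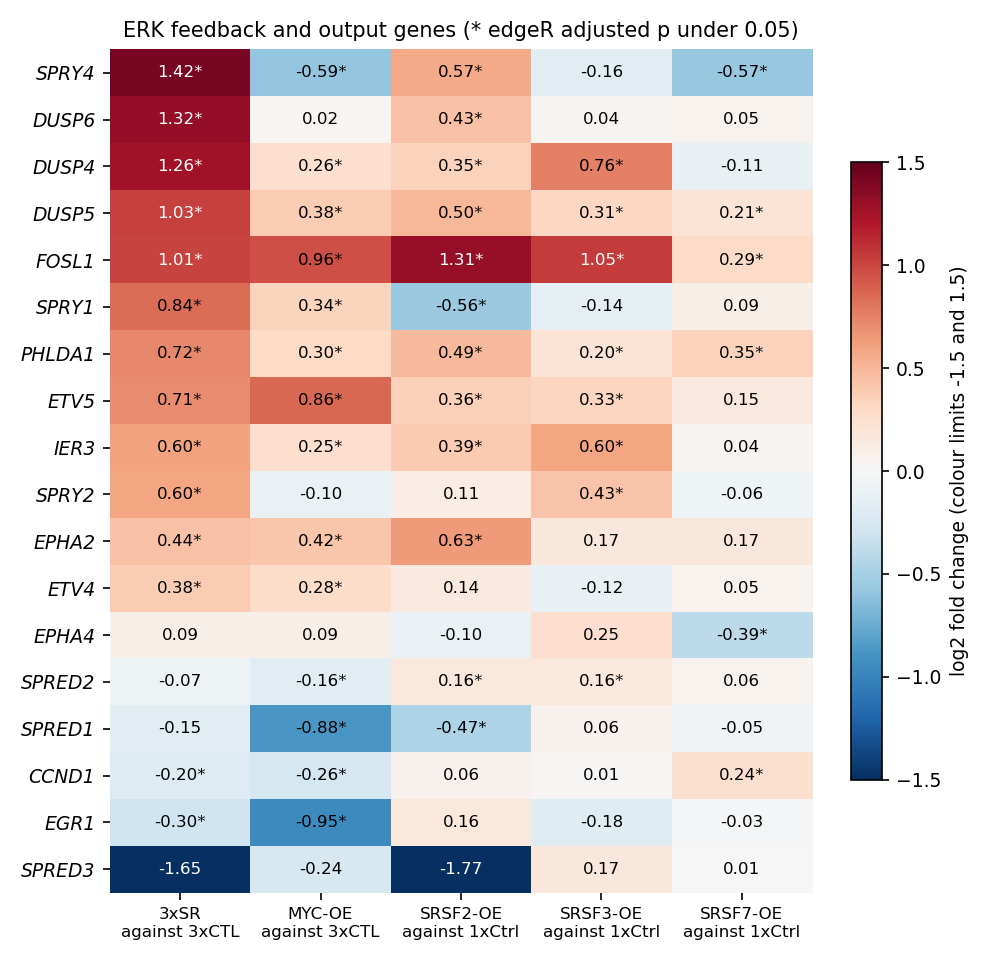
Log2 fold changes of the 18 ERK feedback and output genes (rows) in the 5 lines against their controls (columns), coloured from -1.5 to 1.5, with an asterisk at an edgeR adjusted p under 0.05. The 3xSR column holds 12 called increases, with SPRY4, DUSP6 and DUSP4 at the top, and that of SRSF7-OE holds 4.

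Across the libraries of both tables, some genes followed the members closely. Among 11120 genes, the pattern most like that of AREG was that of ANTXR2 (Pearson r of log2 CPM 0.99 over the 9 libraries of the first table and 0.985 over the 12 of the second), that of TGFA was that of ODC1 (0.986 and 0.989), and that of EREG was that of PHC3 (0.99 and 0.98). ERBB2 was closest to SCRN2 (0.996 and 0.967), HBEGF to AJAP1 (0.985 and 0.971), and EPGN to ODR4 (0.987 and 0.964). EGFR had no gene as close: TMPPE, the nearest, reached 0.803 and 0.872. The libraries fall into groups of 3 and share their scaling, so these coefficients can follow the group means and are given as a description. For EGFR the groups of the first table overlapped, and ERBB2 spread most widely within 1xCtrl. Their coefficients there also follow differences between libraries of the same group.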

How the data were processed

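Gene-level counts of 21 polyA-selected, stranded, paired-end RNA-seq libraries were taken from 2 tables, one of 9 and one of 12 libraries. The values are estimated counts deposited by the authors as whole numbers and used as deposited. Trimmomatic 0.39, STAR, StringTie 2.1.3b and GRCh38.p13 are named in the submitters' processing notes without their roles, and the strand setting is not given in the sources used here. Libraries were grouped, and replicates numbered, by their titles. The 10 members and the pathway and marker lists were chosen with earlier results of these data known.

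Each table was fitted whole in R 4.3.3 with edgeR 4.0.16: filterByExpr (minimum count 10, total 15), TMM scaling, robust quasi-likelihood fits and F tests in either direction, and Benjamini-Hochberg adjustment over the 23160, 24362 or, in the joint fit of both tables, 25013 genes tested, with a threshold of 0.05. Standard errors were derived from the log2 fold change and its F statistic. Levels are CPM scaled within a table; levels per kb use the exon union of GENCODE 29. The fits were run on counts simulated from the spread between these libraries, without a GC trend. That run therefore does not cover the GC trends seen here. Named are the members, the highest and lowest called gene at 1 CPM or more of each list and line, and the gene most like a member in both tables among genes at 5 CPM or more; some genes that this rule names are not reported here. Alternatives were RLE scaling, total counts alone, no filter, DESeq2 1.42.0, the replicate number as a block, removal of each library's GC trend (50 bins), fits of the groups compared alone, and leaving out each replicate. Same-numbered libraries did not deviate together (correlations from -0.19 to 0.0543), so the numbers were not taken as pairs.

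Precision is set by 3 libraries per group. Libraries held 143269192 to 303323552 counts, and the spread between replicates was above counting error (chi-square over its degrees of freedom, 16.15 to 278.4). The floor of 3 counts covers counting error alone. Isoforms were not analysed here.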

Additional observations from a re-analysis of the deposited data

Results flagged for a closer look

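The step from control to 3xSR was tested against that of each single line for the 10 members. Of these differences 18 passed, each on the log2 scale with an edgeR adjusted p under 0.05. All 18 are relative to controls that were counted in separate tables and differed in level. Over all genes, 21.9% differed from the SRSF2-OE step, 17.8% from the SRSF3-OE step and 24.6% from the SRSF7-OE step. Against SRSF3-OE 2 of 10 members passed, near the share of all genes.

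Against the SRSF2-OE step, the 3xSR step was higher for EREG by 1.28, BTC by 1.24, HBEGF by 0.94, EPGN by 0.55, EGFR by 0.42, NRG1 by 0.41 and ERBB3 by 0.28. EREG, EPGN and NRG1 had passed the test in 3xSR and not in SRSF2-OE, whereas EGFR and ERBB3 had fallen in SRSF2-OE and had not passed in 3xSR. Against the SRSF3-OE step, BTC was higher by 1.33 and HBEGF by 0.89.

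Against the SRSF7-OE step, EREG was higher by 1.57, HBEGF by 1.52, AREG by 1.104, EPGN by 0.84, NRG1 by 0.53, TGFA by 0.43, EGFR by 0.33 and ERBB3 by 0.24, and ERBB2 was lower (-0.51). EREG and EPGN moved in opposite directions in 3xSR and SRSF7-OE, each past the test. Their falls in SRSF7-OE missed the threshold when only that line and 1xCtrl were fitted (edgeR adjusted p = 0.06 and 0.0544). The EGFR difference missed the threshold without replicate 1 of 3xCTL, 3xSR or 1xCtrl, 1xCtrl replicate 3 or SRSF7-OE replicate 3 (adjusted p from 0.0511 to 0.0872). That of ERBB3 did so without replicate 1 of 3xCTL or 1xCtrl, 3xSR replicate 2 or 3 or SRSF7-OE replicate 3 (0.0569 to 0.0969), and that of ERBB2 without replicate 1 or 3 of any of the 4 groups (0.0683 to 0.115), with no filter (0.0671) or with the replicate block (0.0646). The causes were not tested.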

How the results depend on the processing

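Of the 33 calls of members against a control, 29 held in every alternative and none reversed; the others were ERBB2 in SRSF2-OE and SRSF3-OE and EREG and EPGN in SRSF7-OE. Of 25 calls between lines 20 held, and of 18 differences of effects 15. Members called in SRSF7-OE numbered 4, but 7 with the GC trend removed, 2 with only these groups fitted, and 4 to 7 when 1 replicate was left out, with 7 without 1xCtrl replicate 2. With the GC trend removed, 7 members in place of 4 differed between SRSF3-OE and SRSF2-OE, and 4 in place of 2 between the 3xSR and SRSF3-OE steps. Over all genes, 4214 calls in SRSF7-OE became 7005 with the GC trend removed, 2251 with only these groups, 7321 without 1xCtrl replicate 2 and 2685 without SRSF7-OE replicate 3, and 4453 between the 3xSR and SRSF3-OE steps became 7070 with the GC trend removed; the cause was not tested.

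Signs changed only in values that had not passed. ERBB2 in SRSF7-OE was 0.00 and became -0.0072 under RLE scaling, -0.0060 with total counts, -0.010 without the filter, -0.0072 with DESeq2, -0.0087 with the GC trend removed and -0.0045 with only these groups, and ran from -0.16 to 0.22 with 1 replicate left out. EGFR in SRSF3-OE was -0.0435 with total counts, and EREG in the 3xSR step minus the SRSF3-OE step was -0.0053 with the GC trend removed. With 1 replicate left out EGFR ran from -0.0622 to 0.0022 in 3xSR and from -0.0492 to 0.0681 in SRSF3-OE, EPGN in MYC-OE from -0.0493 to 0.143, and AREG and EREG in the 3xSR step minus the SRSF3-OE step from -0.0193 to 0.111 and from -0.0248 to 0.227. DUSP6, which did not pass in these lines, was -0.0103 in MYC-OE and -0.0662 in SRSF3-OE with total counts, -0.0093 in MYC-OE with the GC trend removed and -0.0019 in SRSF3-OE without the filter, and with 1 replicate left out it ran from -0.0165 to 0.0808 in MYC-OE, from -0.0442 to 0.0471 in SRSF3-OE and from -0.0142 to 0.0690 in SRSF7-OE.

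With the replicate number as a block, members called against a control numbered 8 for 3xSR, 7 for MYC-OE, 5 for SRSF2-OE, 7 for SRSF3-OE and 4 for SRSF7-OE; ERBB2 in SRSF2-OE (-0.36, adjusted p = 0.0759) and SRSF3-OE (-0.35, adjusted p = 0.0683) were the calls lost. Among the members' other comparisons the block ended 3 calls, all of ERBB2: SRSF7-OE against SRSF2-OE (0.37, adjusted p = 0.0658) and SRSF3-OE (0.36, adjusted p = 0.0516), and the 3xSR step minus the SRSF7-OE step (-0.51, adjusted p = 0.0646). Counts of 31 to 57 per library limit BTC.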
